A study of Mus musculus and Rattus norvegicus with 30 samples.

Results

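The genes described here encode 10 receptors for neuropeptides that dorsal root ganglion (DRG) neurons make in larger amounts after their axons are cut: the galanin receptors Galr1 and Galr2, the neuropeptide Y receptors Npy1r, Npy2r and Npy5r, the receptors Vipr1, Vipr2 and Adcyap1r1 for vasoactive intestinal peptide (VIP) and pituitary adenylate cyclase-activating polypeptide (PACAP), the cholecystokinin receptor Cckbr and the neurotensin receptor Ntsr2. They were chosen by name as receptors of these ligands and looked up by gene symbol in the deposited count tables, where they made up 10 of 54315 mouse features and 9 of 39281 rat features. Not every ligand gene was found to rise here. The cholecystokinin gene Cck in mouse and the neurotensin gene Nts in rat did not pass the test after injury. Mouse Vip and rat Npy were not tested. Gene expression was measured by RNA-seq of whole DRG. The mouse libraries came from adult animals of both sexes, each holding the L3 and L4 DRG of 1 animal 28 days after spared nerve injury (SNI), which cuts the common peroneal and sural branches of the sciatic nerve while sparing the tibial one, or after sham surgery, in which the nerve is exposed and not cut. BALB/c gave 6 sham and 4 SNI libraries and B10.D2 gave 5 of each. Both are inbred strains. The rat libraries, 4 sham and 4 spinal nerve transection (SNT), each pooled the L5 DRG of 3 male Wistar rats 21 days after the L5 spinal nerve had been ligated and transected, or exposed only. The SNI ganglia hold cut and spared neurons together, and the pooling leaves the spread between single rats unmeasured.

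All 10 receptors are G protein-coupled receptors. Galr1, Npy1r, Npy2r and Npy5r couple mainly to inhibitory G proteins, which lower cyclic AMP and reduce transmitter release, whereas Galr2, Cckbr and Ntsr2 are linked to phospholipase C and calcium, and Vipr1, Vipr2 and Adcyap1r1 raise cyclic AMP. Sensory neurons carry several of these receptors on their central terminals and cell bodies, so that peptides released in the spinal cord or in the ganglion can act back on the neurons themselves. Galanin, neuropeptide Y, VIP and PACAP are classic markers of the DRG response to axotomy, and cholecystokinin and neurotensin are further peptides of primary afferents.

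Levels are given as CPM, the counts in every 1000000 counts of a library, scaled between libraries with edgeR's trimmed mean factors. In units of 1000000 counts, the mouse libraries held 29.99 to 41.9 and the rat libraries 11.95 to 17.9, so that 3 counts, taken as the floor of detection, correspond to 0.0716 to 0.100 CPM in mouse and 0.168 to 0.251 CPM in rat. These limits cover counting error alone. A receptor was called changed where the adjusted p of edgeR's quasi-likelihood test, over 24685 mouse or 13690 rat features, was under 0.05. All 10 receptors had counts and were tested in mouse. In rat, Galr1, Galr2, Npy1r and Npy5r were listed at 0 in all 8 libraries and Vipr1 was not found by its symbol, which left Npy2r, Vipr2, Adcyap1r1, Cckbr and Ntsr2. The injury genes Atf3, Gap43 and Stmn4 were listed at 0 in the same 8 libraries, so a 0 in the rat table is not read as absence of the receptor.

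A pair of rat libraries stood apart from the rest of their groups. Over the tested features, rat SNT library 1 had a mean Pearson correlation of 0.978 with the other SNT libraries and of 0.980 with the sham libraries, and rat sham library 4 had 0.980 with its own group and 0.977 with SNT, whereas the other 6 libraries had 0.985 to 0.988 with their own group and 0.946 to 0.962 with the other one. The summed level of the injury response genes was 688.5 CPM in sham library 4, against 281.8 to 315.0 in the other shams and 804.6 to 1105 in SNT. The rat receptor results are therefore given with and without these libraries, and those of other rat genes where the value or the call moved. Both libraries were picked from these same counts for their likeness to the other group. Leaving them out therefore tends to widen the differences between sham and SNT. Smaller adjusted p-values without them are not separate support for a change. In mouse, B10.D2 SNI library 76 had an injury gene sum of 303.9 CPM, against 453.0 to 517.5 in the other 4 and 219.6 to 269.6 in B10.D2 sham. All 8 sensory neuron markers and all 6 markers each of satellite glia and Schwann cells had counts in mouse, and central nervous system markers summed to at most 35.8 CPM.

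The promoters of Galr2, which differed between the strains, Cckbr, which rose after injury in both species, and Npy2r, which had calls in both species and between the strains, were chosen with these results known. The 250 bases upstream of their RefSeq transcription starts (GRCm38.p6, read 5′ to 3′ on the strand of the gene) are shown so that the results can be read beside them. Capitals mark the matches to 9 motifs, each searched on both strands. These were the cyclic AMP response element CRE, with the letters TGACGTCA, and its short form TGACG, the AP-1 site TGAGTCA, the STAT site TTCNNNGAA, the GC box GGGCGG, the CCAAT box CCAAT, the TATA box TATAAA, the E-box CAGCTG and the SOX site AACAAT. The short form lies within the CRE. The genome is that of C57BL/6J, neither of the strains studied.
Cckbr, chr7:105425481-105425730, plus strand: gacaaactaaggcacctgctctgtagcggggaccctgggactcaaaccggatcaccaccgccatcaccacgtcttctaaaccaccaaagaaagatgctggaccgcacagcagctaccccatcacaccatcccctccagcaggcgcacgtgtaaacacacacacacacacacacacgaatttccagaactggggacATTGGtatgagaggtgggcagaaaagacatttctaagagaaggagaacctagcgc
Npy2r, chr3:82548086-82548335, minus strand: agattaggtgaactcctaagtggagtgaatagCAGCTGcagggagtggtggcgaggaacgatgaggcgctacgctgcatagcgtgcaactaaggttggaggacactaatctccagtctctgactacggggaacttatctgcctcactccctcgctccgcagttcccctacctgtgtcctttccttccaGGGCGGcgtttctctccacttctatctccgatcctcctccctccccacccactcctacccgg
Galr2, chr11:116280689-116280938, plus strand: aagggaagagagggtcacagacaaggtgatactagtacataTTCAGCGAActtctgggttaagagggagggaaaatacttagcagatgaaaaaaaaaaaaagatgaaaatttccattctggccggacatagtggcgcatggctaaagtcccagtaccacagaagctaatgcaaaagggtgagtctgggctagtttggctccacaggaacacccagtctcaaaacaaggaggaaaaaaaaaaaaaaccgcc
Cckbr held a single CCAAT box, 55 bases upstream of the start, a motif that 34.5% of the 27025 mouse promoters of this length held. Npy2r held an E-box (12.8% of promoters) and a GC box (32.9%), and Galr2 a STAT match alone (7.18%). The CRE, short form, AP-1, TATA and SOX letters were found in none of these 3 windows. The Galr2 window had 4 CpG dinucleotides, against 9 in Cckbr, 12 in Npy2r and a median of 6 over all promoters. Of the other 6 receptors with a listed promoter, Npy1r held an AP-1 match (4.43% of promoters) and Ntsr2 a STAT match 62 bases upstream of its RefSeq start. Vipr1 held the short form of the CRE (17.9% of promoters) 13 bases upstream, with 3 GC boxes and a CCAAT box. Npy5r held a CCAAT box, Vipr2 a GC box, and Adcyap1r1 a GC box and a CCAAT box. These are matches of letters and not measured binding. The windows of Npy1r, Npy5r and Ntsr2 overlap the annotated gene spans given below. For Ntsr2 the window ends at 16653469, whereas the annotated gene starts at 16653382.

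Across the mouse ganglia the receptors spanned a wide range of levels. Per kilobase of annotated exon, which allows genes to be compared, Npy1r was highest in BALB/c sham ganglia at 7.81 ± 1.14 CPM per kb (SD, n = 6), followed by Npy2r at 5.60 ± 0.926 and Galr1 at 1.95 ± 0.435. Adcyap1r1 (0.853), Ntsr2 (0.761), Galr2 (0.456), Cckbr (0.345), Vipr2 (0.265) and Npy5r (0.209) formed a middle run in which each receptor's range over the 6 libraries overlapped that of the next. Vipr1 was lowest at 0.0204 ± 0.0100 CPM per kb, with 2 to 7 counts per library, and its range lay below that of Npy5r. The ranges of Npy1r and Npy2r overlapped, while Npy2r lay above Galr1 and Galr1 above Adcyap1r1. In BALB/c SNI ganglia Cckbr came next after Npy2r, at 4.44 ± 0.643 CPM per kb (n = 4), with its range below that of Npy2r and above that of Galr1. In B10.D2 SNI ganglia the order was Npy1r, Npy2r, Galr1, Cckbr, Adcyap1r1, Ntsr2, Npy5r, Vipr2, Galr2 and Vipr1. Cckbr was there at 2.72 ± 1.06 CPM per kb (n = 5), with a range overlapping those of Galr1 and Adcyap1r1, and Galr2 was next to last.

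**Figure D1:**
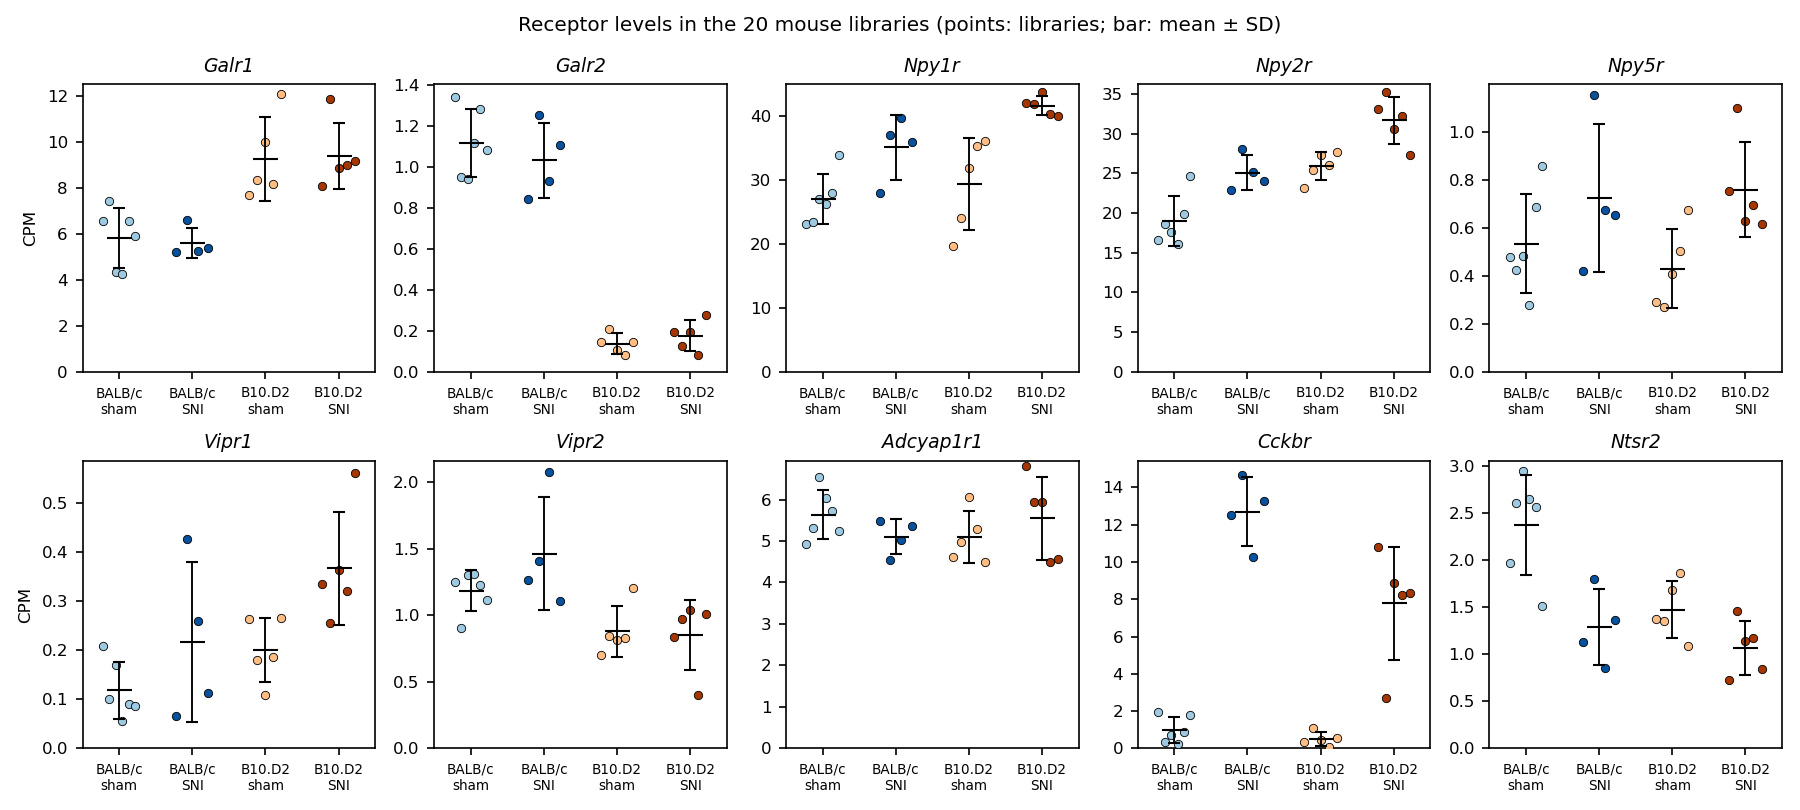
Level of each receptor gene in the 20 mouse libraries, in CPM on axes that start at 0, by strain and surgery. Points are libraries and bars the mean ± SD. Cckbr is higher in every SNI library than in any sham library of its strain, and Galr2 is lower in every B10.D2 library than in any BALB/c library.

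The injury comparisons asked which receptors differ between injured and sham ganglia. In BALB/c, Cckbr and Npy2r rose and Ntsr2 fell, so that 3 of 10 receptors passed the test, where 9.69% of all tested features did (4.82% higher and 4.87% lower). In B10.D2, Cckbr and Npy1r rose, 2 of 10, against 4.58% of all features (2.10% higher and 2.48% lower), and 0 fell. Cckbr and Npy2r rose in rat, 2 of the 5 tested, against 27.4% of all rat features (12.3% higher and 15.1% lower). These shares depended on single libraries. In B10.D2 the share fell to 2.64% without SNI library 90 and to 2.95% without SNI library 69, with 1 receptor passing in each, Cckbr. In rat the share was between 10.6% (without sham library 3) and 15.9% when sham library 1, 2 or 3 or SNT library 2, 3 or 4 was left out, where 1 or 2 receptors passed. Without both sham library 4 and SNT library 1 it was 43.9%, and 3 of 5 receptors passed. That pair was picked for its likeness to the other group. SNI and sham libraries did not overlap for 1 of 10 receptors in BALB/c (8.61% of all features) and for 2 of 10 in B10.D2 (5.18%), and SNT and sham for 1 of 5 in rat (26.5%). The median log2 fold change over the receptors was 0.34 in BALB/c, 0.32 in B10.D2 and -0.43 in rat, beside medians within 0.01 of 0 over all features. A lower level in a whole ganglion cannot be told apart from fewer cells of the type that carries the transcript as against less RNA in each cell.

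**Figure D2:**
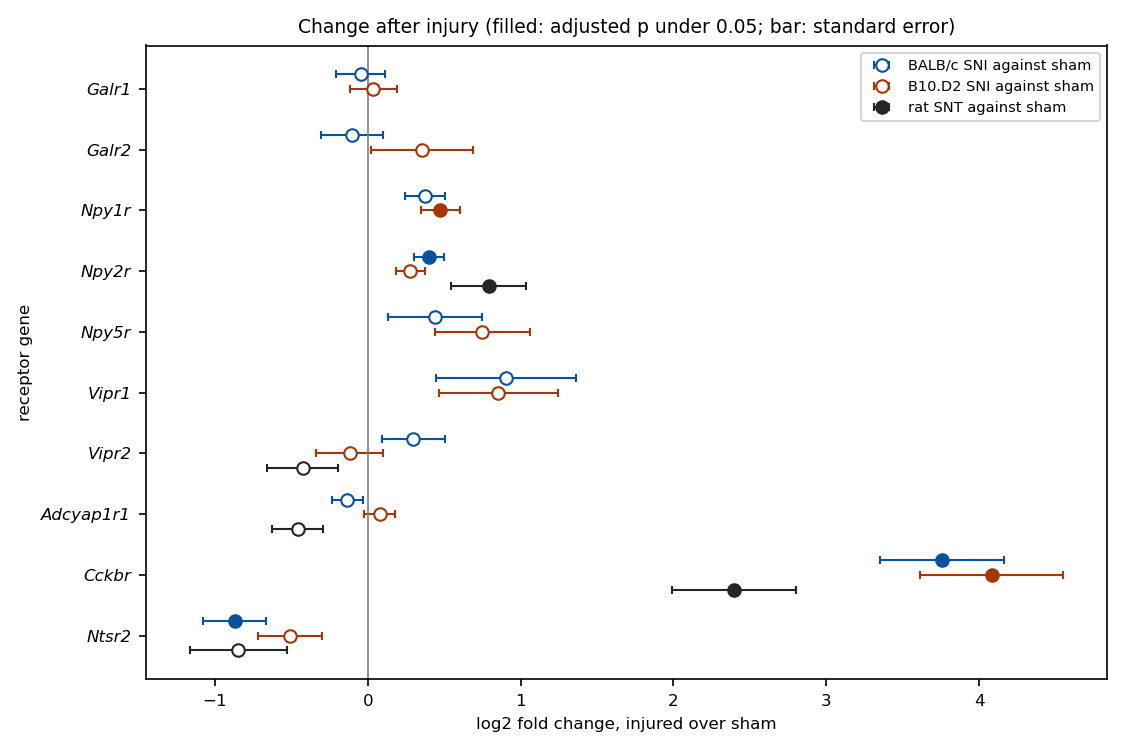
Log2 fold change of injured over sham for each receptor in BALB/c, B10.D2 and rat, with bars for the standard error and filled points where the adjusted p was under 0.05. Cckbr lies between 2.39 and 4.08 in the 3 comparisons, and every other receptor within 1 of 0. Receptors without a rat point were not tested in rat.

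Cckbr (ENSMUSG00000030898, mm10 chromosome 7, 105425731 to 105470898, plus strand, 6 merged exons) encodes the cholecystokinin B receptor, which also binds gastrin. It was low in sham ganglia, with 3 to 65 counts per library. In BALB/c sham it ranged from 0.251 to 1.94 CPM with a median of 0.795, and in BALB/c SNI it was at 12.5, 14.7, 10.3 and 13.3 CPM. The groups were far apart, with means of 0.988 ± 0.720 (SD, n = 6) and 12.7 ± 1.84 CPM (n = 4) and a log2 fold change of 3.76 (SE 0.407; adjusted p = 2.83e-06), a 13.5-fold rise. B10.D2 sham libraries held 0.322, 1.12, 0.435, 0.0798 and 0.579 CPM, the lowest being 3 counts. B10.D2 SNI libraries held 10.8, 2.71, 8.87, 8.24 and 8.32 CPM. The value of 2.71 belonged to library 76, whose injury gene sum was also low, and it still exceeded every sham library. The log2 fold change in B10.D2 was 4.08 (SE 0.469; adjusted p = 1.98e-05), and it was between 3.81 and 4.49 when any 1 of the 20 libraries was left out.

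In rat, Cckbr (ENSRNOG00000017679) was at 2.32, 3.54, 2.56 and 9.32 CPM in sham libraries 1 to 4 and at 18.6, 26.7, 19.95 and 28.9 CPM in SNT libraries 1 to 4. The highest sham value came from library 4. The rise, from 4.44 ± 3.30 to 23.6 ± 5.05 CPM (n = 4 each), had a log2 fold change of 2.39 (SE 0.405; adjusted p = 0.0107). Without sham library 4 it was 3.07 (adjusted p = 0.000273), without SNT library 1 it was 2.49 (adjusted p = 0.00242), and without both it was 3.17 (adjusted p = 1.29e-05). The SNT libraries lay above all sham libraries in each of these sets.

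In mouse, Npy1r and Npy2r had the highest levels of the 10 receptors per kilobase of exon, and their log2 fold changes after injury were between 0.28 and 0.47. Npy2r (ENSMUSG00000028004, chromosome 3, 82538383 to 82548084, minus strand) encodes the Y2 receptor, known as a presynaptic autoreceptor. In BALB/c sham it ranged from 16.2 to 24.7 CPM with a median of 18.1, and in BALB/c SNI it was at 23.0, 28.1, 25.2 and 24.1 CPM. A single sham library, 71, lay within the SNI range, and the log2 fold change was 0.40 (SE 0.0975; adjusted p = 0.0104), a 1.32-fold rise. This call ended without SNI library 64 (log2 fold change 0.34, adjusted p = 0.0602) and when BALB/c was fitted without the other strain (0.41, adjusted p = 0.0510). B10.D2 libraries held 23.2, 25.5, 27.3, 26.1 and 27.7 CPM after sham surgery and 33.1, 35.2, 30.5, 32.2 and 27.3 CPM after SNI. Here 4 of the 5 SNI values lay above every sham value, and the log2 fold change of 0.28 (SE 0.0958) did not pass (adjusted p = 0.114), although it did in a fit of B10.D2 alone and without BALB/c sham library 71.

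Rat Npy2r (ENSRNOG00000049213) was at 8.54, 12.4, 12.25 and 16.55 CPM in sham and at 25.8, 16.5, 15.7 and 28.4 CPM in SNT. The groups overlapped through sham library 4, and Npy2r rose 1.73-fold (log2 fold change 0.79, SE 0.247; adjusted p = 0.0396). The adjusted p was 0.0150 without sham library 4, 0.0622 without SNT library 1 and 0.0173 without both. The call also ended without sham library 1 (0.0874), 2 (0.0763) or 3 (0.0955) and without SNT library 4 (0.0971), so it held for 3 of the 8 libraries left out in turn.

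Npy1r (ENSMUSG00000036437, chromosome 8, 66697192 to 66706792, plus strand) encodes the Y1 receptor of small peptidergic neurons. B10.D2 sham libraries were widely spread, at 19.7, 24, 31.8, 35.4 and 36.1 CPM, whereas B10.D2 SNI libraries lay close together at 42.1, 41.94, 43.7, 40.3 and 39.96 CPM, all above sham. The log2 fold change was 0.47 (SE 0.128; adjusted p = 0.0354). Leaving out 1 library ended this call for 7 of the 20 libraries (sham 58, 60 and 67 and SNI 69, 78, 89 and 90 of B10.D2), with adjusted p up to 0.0966, and so did a fit of B10.D2 alone (adjusted p = 0.0592). In BALB/c, Npy1r ranged from 23.2 to 34.0 CPM with a median of 26.7 in sham and was at 27.9, 37.0, 39.7 and 35.9 CPM in SNI. These groups overlapped and the log2 fold change of 0.38 (SE 0.129) did not pass (adjusted p = 0.0732). It did pass with DESeq2 (0.37, adjusted p = 0.0460), with no filter on low counts (0.36, adjusted p = 0.0269) and in 4 of the 20 fits without 1 library, BALB/c sham 71, BALB/c SNI 49 or B10.D2 sham 58 or 88 (adjusted p of 0.0123 to 0.0483). Npy5r (ENSMUSG00000044014, chromosome 8, 66679965 to 66688128, minus strand), the Y5 receptor, lies head to head with Npy1r. It was low, with group means of 0.431 to 0.759 CPM and 9 to 46 counts per library, and its log2 fold changes of 0.44 (SE 0.307) in BALB/c and 0.75 (SE 0.311) in B10.D2 did not pass (adjusted p = 0.425 and 0.209).

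Ntsr2 (ENSMUSG00000020591, chromosome 12, 16653382 to 16660227, plus strand), the low-affinity neurotensin receptor, was the only receptor of the 10 that fell in BALB/c, where it ranged from 1.51 to 2.94 CPM with a median of 2.59 in sham and was at 1.135, 1.805, 0.8555 and 1.36 CPM in SNI. Sham library 71 alone lay within the SNI range. The log2 fold change was -0.87 (SE 0.207; adjusted p = 0.00897), and it passed when any 1 library was left out (adjusted p of 0.00483 to 0.0439). In B10.D2 it was at 1.37, 1.36, 1.685, 1.86 and 1.09 CPM in sham and 0.726, 1.455, 1.14, 1.18 and 0.840 CPM in SNI, which overlapped, and the log2 fold change of -0.51 (SE 0.209) did not pass (adjusted p = 0.203). Rat Ntsr2 (ENSRNOG00000049054) was at 3.98, 5.86, 4.13 and 2.67 CPM in sham and 3.73, 1.91, 1.61 and 2.03 CPM in SNT. The lowest sham value and the highest SNT value were those of sham library 4 and SNT library 1. With all 8 libraries the log2 fold change was -0.85 (SE 0.318; adjusted p = 0.0716), which DESeq2 called lower (adjusted p = 0.0466). In edgeR's test without sham library 4 it was -1.005 (adjusted p = 0.02905), without SNT library 1 it was -1.17 (adjusted p = 0.0115), and without both it was -1.32 (adjusted p = 0.00194).

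The galanin receptors did not pass the test after injury in either strain. Galr1 (ENSMUSG00000024553, chromosome 18, 82392380 to 82406777, minus strand) ranged from 4.24 to 7.44 CPM with a median of 6.21 in BALB/c sham, against 5.19, 6.595, 5.26 and 5.36 CPM in SNI. B10.D2 libraries held 7.69, 8.32, 9.97, 8.14 and 12.1 CPM in sham and 8.07, 11.8, 8.87, 8.96 and 9.16 CPM in SNI. The log2 fold changes were -0.05 (SE 0.162; adjusted p = 0.900) and 0.04 (SE 0.153; adjusted p = 0.941), each within its standard error of 0. Galr2 (ENSMUSG00000020793, chromosome 11, 116280939 to 116283938, plus strand) was at 0.843, 1.25, 0.933 and 1.11 CPM in BALB/c SNI, inside the sham range of 0.941 to 1.34 (median 1.10) apart from the lower pair, with a log2 fold change of -0.10 (SE 0.202; adjusted p = 0.817). In B10.D2 it had 3 to 10 counts in every library, so a change after injury could be measured only coarsely there (0.36, SE 0.333; adjusted p = 0.709).

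The VIP and PACAP receptors likewise did not pass in either strain or in rat. Adcyap1r1 (ENSMUSG00000029778, chromosome 6, 55451978 to 55501451, plus strand), the PACAP-selective PAC1 receptor, was the best measured of them, with 158 to 271 counts per mouse library. Its BALB/c means were 5.63 ± 0.591 CPM in sham (n = 6) and 5.10 ± 0.421 in SNI (n = 4), its B10.D2 means 5.09 ± 0.628 and 5.55 ± 0.998 (n = 5 each), and the log2 fold changes of -0.13 (SE 0.101) and 0.08 (SE 0.0997) did not pass (adjusted p = 0.474 and 0.771). Rat Adcyap1r1 (ENSRNOG00000012098) was at 15.6, 17.3, 12.9 and 19.5 CPM in sham and 10.4, 13.0, 13.7 and 10.3 CPM in SNT. Only sham library 3 lay within the SNT range, and the log2 fold change was -0.46 (SE 0.166; adjusted p = 0.0638), or -0.28 (adjusted p = 0.213) without sham library 4 and SNT library 1.

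Vipr2 (ENSMUSG00000011171, chromosome 12, 116077726 to 116146261, plus strand), the VPAC2 receptor, is overlapped on the other strand by the annotated gene Gm20658, and whether its reads were counted by strand is not given in the sources used here. Its log2 fold changes were 0.30 (SE 0.205) in BALB/c, -0.12 (SE 0.220) in B10.D2 and -0.43 (SE 0.231) in rat (ENSRNOG00000004317; adjusted p = 0.419, 0.857 and 0.187). In rat it was at 7.46, 13.5, 10.8 and 9.51 CPM in sham and at 9.23, 6.86, 5.39 and 9.31 CPM in SNT, so the groups overlapped. Without sham library 4 and SNT library 1 its log2 fold change was -0.55 (adjusted p = 0.115). Vipr1 (ENSMUSG00000032528, chromosome 9, 121642716 to 121672954, plus strand), the VPAC1 receptor, was near the floor in mouse. It had 2 to 20 counts per library, with means of 0.118 and 0.216 CPM in BALB/c sham and SNI and 0.201 and 0.367 CPM in B10.D2. Its log2 fold changes of 0.91 (SE 0.459) and 0.85 (SE 0.390) had large errors and did not pass (adjusted p = 0.243 and 0.266).

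**Figure D3:**
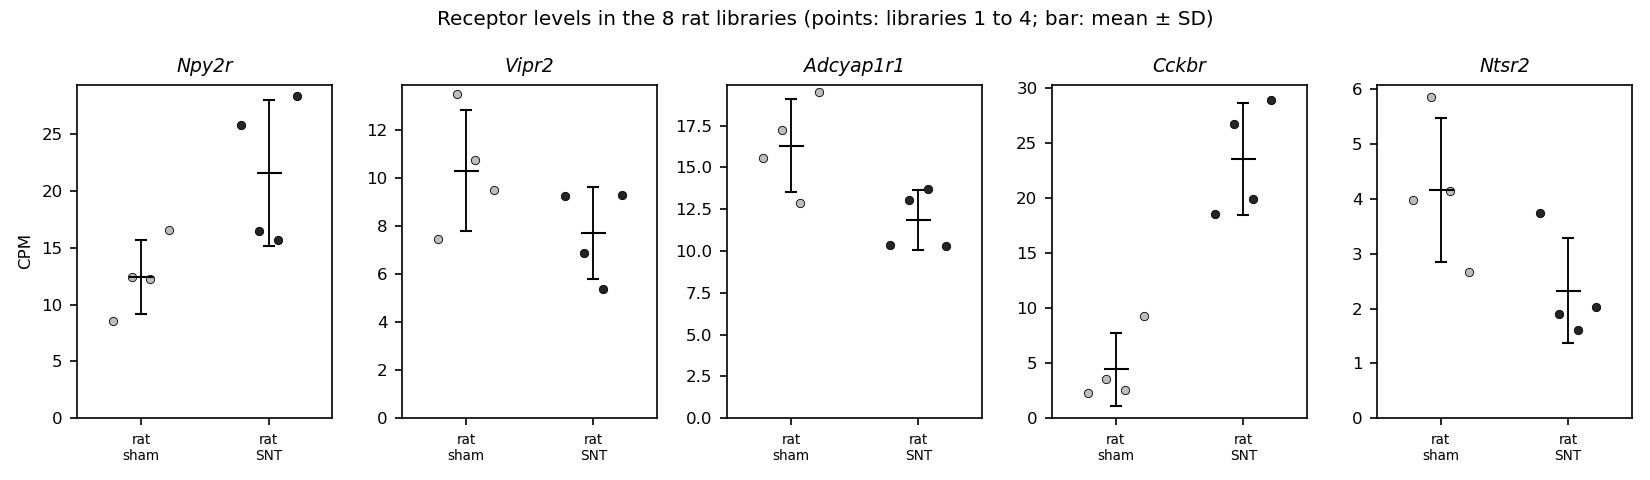
Level of the 5 receptor genes with counts in rat, in CPM on axes that start at 0, in the 4 sham and 4 SNT libraries (library 1 at the left of each group). Points are libraries of 3 pooled rats and bars the mean ± SD. Sham library 4 is the highest sham for Cckbr and the lowest for Ntsr2.

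Most ligand genes rose after injury. Mouse and rat values stand side by side below without a test between them, since injury, ganglion and library type differ too. In BALB/c, 4 of the 5 tested ligands rose (median log2 fold change 3.01), in B10.D2 3 of 5 (1.80) and in rat 4 of 5 (1.925). Npy, the ligand of the Y receptors, ranged from 0.401 to 3.10 CPM with a median of 1.41 in BALB/c sham and was at 43.45, 38.1, 32.0 and 33.7 CPM in SNI. Npy had a log2 fold change of 4.72 (SE 0.392; adjusted p = 1.24e-07), and in B10.D2 one of 4.28 (SE 0.416; adjusted p = 4.93e-06). Nts, which encodes neurotensin, rose by a log2 fold change of 3.01 (SE 0.260; adjusted p = 1.90e-07) in BALB/c and 2.77 (SE 0.272; adjusted p = 4.93e-06) in B10.D2, so that its receptor Ntsr2 and Nts moved in opposite directions in BALB/c. In rat, Nts was at 3.13 ± 0.995 CPM in sham and 3.30 ± 0.7805 in SNT (n = 4 each; log2 fold change 0.07, adjusted p = 0.859), and Npy had at most 1 count in any library. As with the receptors that lack rat counts, this is not read as absence of Npy.

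Gal, which encodes galanin, rose in BALB/c from 8.15 ± 3.49 (n = 6) to 144.8 ± 38.8 CPM (n = 4; log2 fold change 4.18, SE 0.254; adjusted p = 1.98e-09). In B10.D2 it was at 4.56, 7.21, 6.49, 8.17 and 8.18 CPM in sham and 26.7, 15.4, 27.95, 27.8 and 21.8 CPM in SNI (1.80, SE 0.261; adjusted p = 0.000216), and in rat the log2 fold change was 1.925 (SE 0.406; adjusted p = 0.0131). Its receptors Galr1 and Galr2, with the values above, did not pass in the same mouse libraries. Without sham library 4 the rat value was 2.60. Adcyap1, which encodes PACAP, rose in BALB/c (0.735, SE 0.113; adjusted p = 0.000185) and in rat (1.14, SE 0.356; adjusted p = 0.0399, or 1.72 without sham library 4) and did not pass in B10.D2 (0.33, SE 0.113; adjusted p = 0.108), although it did in a fit of B10.D2 alone (adjusted p = 0.0292) and with no filter on low counts (adjusted p = 0.0328). The rat call for Adcyap1 ended in 6 of the 8 fits without 1 library, those other than sham library 4 and SNT library 1 (adjusted p up to 0.108).

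Cholecystokinin and its receptor were measured in both species. Cck itself was low in mouse, with means of 0.267 and 0.319 CPM in BALB/c sham and SNI and 0.135 and 0.183 CPM in B10.D2, and its log2 fold changes of 0.24 (SE 0.277) and 0.31 (SE 0.329) did not pass (adjusted p = 0.671 and 0.738), while its receptor Cckbr rose 13.5-fold and 16.9-fold. In rat, Cck was at 2.07, 1.95, 1.28 and 10.5 CPM in sham and 13.3, 22.3, 23.8 and 25.6 CPM in SNT. Rat Cck rose by a log2 fold change of 2.41 (SE 0.576; adjusted p = 0.0169), beside 2.39 for rat Cckbr, and without sham library 4 Cck had one of 3.60. Vip was at 13.4, 10.4, 11.7 and 41.4 CPM in rat sham and 106.5, 127.5, 143.8 and 179.7 CPM in SNT. The groups did not overlap, and Vip rose (log2 fold change 2.85, SE 0.427; adjusted p = 0.0104), by 3.69 without sham library 4 and SNT library 1. In mouse, Vip was at most 0.340 CPM in any library and was not tested.

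**Figure D4:**
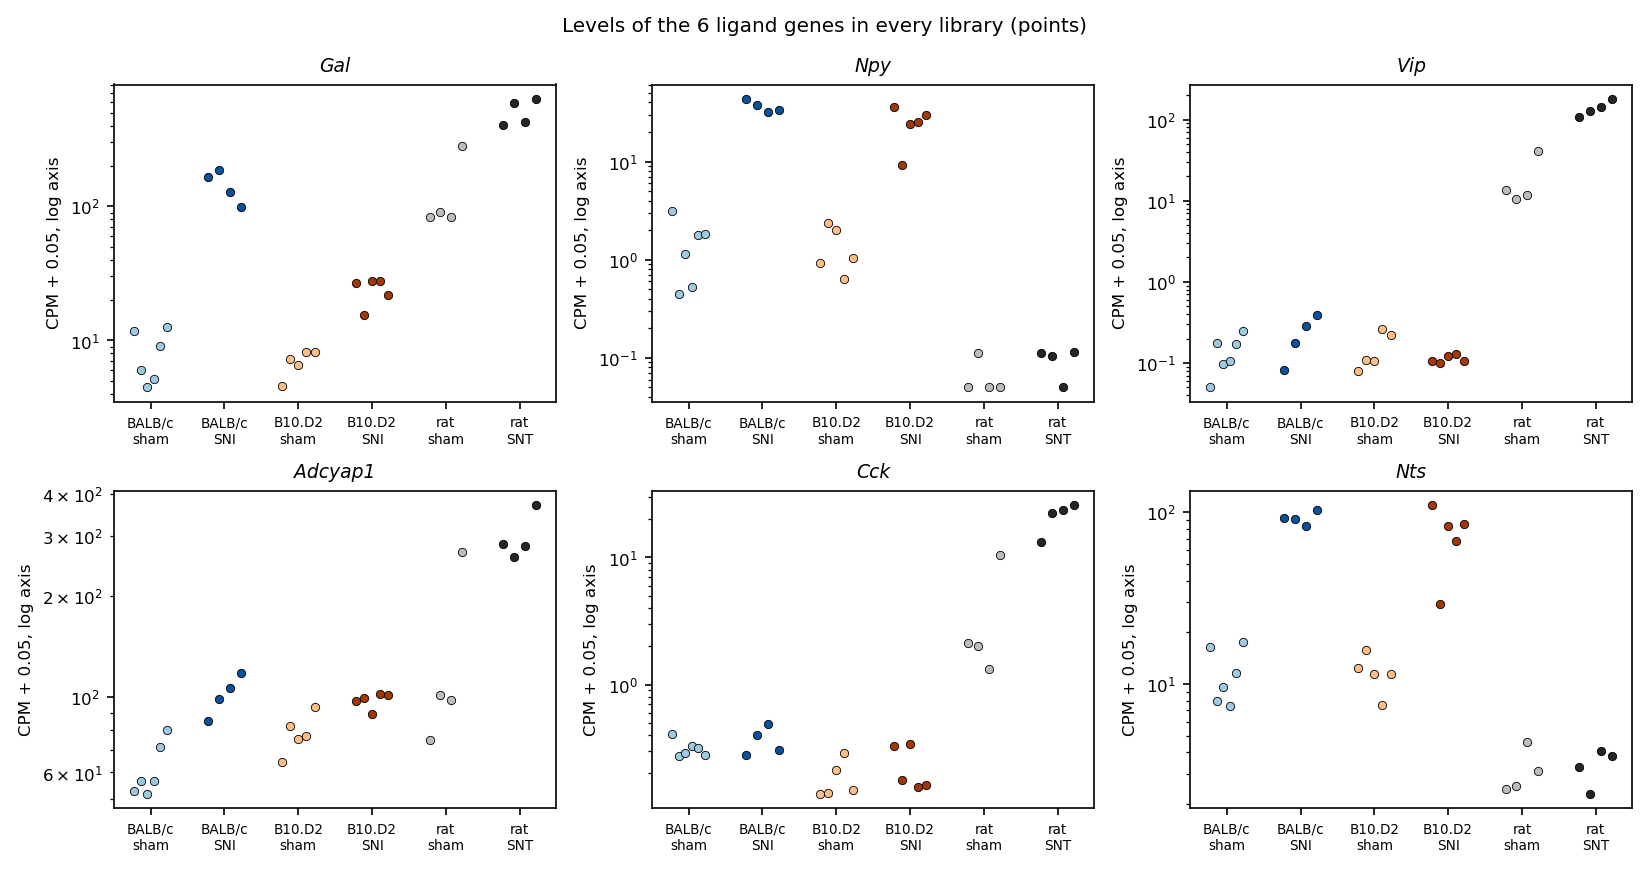
Level of the 6 ligand genes in every library, as CPM + 0.05 on a log axis, by group. Points are libraries. Npy and Nts rise in both mouse strains, whereas in rat Nts did not pass and Npy was not tested. Vip and Cck rise in rat and stay below 1 CPM in mouse, and rat sham library 4 lies above the other shams for Gal, Vip, Adcyap1 and Cck.

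Other genes of these signalling routes, from the lists used here, mostly did not pass. Over all features 9.69% passed in BALB/c, 4.58% in B10.D2 and 27.4% in rat. Of 11 other receptors of the same families, 5 were tested in mouse and 1 rose in each strain: Cckar, the cholecystokinin A receptor, from 13.6 to 20.8 mean CPM in BALB/c (log2 fold change 0.61, SE 0.0623; adjusted p = 1.39e-06) and from 21.5 to 29.6 in B10.D2 (0.45, SE 0.0608; adjusted p = 0.000107). Its SNI and sham libraries did not overlap in either strain. In rat, where Cckar was listed at 0, 3 were tested and 1 fell, Gipr, the receptor of the incretin GIP (-1.18, SE 0.361; adjusted p = 0.0368). Without sham library 4 and SNT library 1 Gipr had a log2 fold change of -1.62 (adjusted p = 0.00355), and its call ended in 5 of the 8 fits without 1 library. Of 23 G proteins, adenylate cyclases and phospholipases, 2 rose and 2 fell in BALB/c, 0 rose and 2 fell in B10.D2, and 3 rose and 1 fell of 15 tested in rat. Gnai1, an inhibitory G protein, fell in both strains (-0.28, SE 0.0528, and -0.32, SE 0.0520; adjusted p = 0.00157 and 0.000610), as did Plcb1, a phospholipase C (-0.23, SE 0.0449, and -0.17, SE 0.0443; adjusted p = 0.00164 and 0.0258). In BALB/c Gnai2 (0.18, SE 0.0543; adjusted p = 0.0343) and Gnai3 (0.17, SE 0.0511; adjusted p = 0.0334) rose, and in rat Gna14 fell (-1.27, SE 0.281; adjusted p = 0.0141) and Adcy6 (0.79, SE 0.180; adjusted p = 0.0148) and Gna11 (0.49, SE 0.122; adjusted p = 0.0188) rose. In rat 5 of the 15 rose and 3 fell without sham library 4 and SNT library 1, where 43.9% of all features passed. The calls for Gnai2 and Gnai3 in BALB/c ended in 6 and 5 of the 20 fits without 1 library, and that for Plcb1 in B10.D2 in 6.

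Of 8 receptor partners, arrestins and receptor kinases, 0 passed in either mouse strain by edgeR or DESeq2, with 2 in BALB/c and 1 in B10.D2 at an unadjusted p under 0.05, and Arrb1, which encodes beta-arrestin 1, rose in rat (0.53, SE 0.155; adjusted p = 0.0319), 1 of 3 tested. Of 9 peptidases that can cleave these ligands, Nln (neurolysin, which cleaves neurotensin; 0.30, SE 0.0571) rose and Mme (neprilysin; -0.38, SE 0.114) fell in BALB/c (adjusted p = 0.00158 and 0.0410). In B10.D2 0 of 9 passed by edgeR or DESeq2, with 2 at an unadjusted p under 0.05. In rat 3 of 7 rose and 1 fell, Tpp2 (-0.30, SE 0.0948; adjusted p = 0.0411), and among those that rose were Dpp4 (1.06, SE 0.208; adjusted p = 0.0119) and Mme (0.97, SE 0.252; adjusted p = 0.0217), so that Mme fell in BALB/c and rose in rat. Without 1 library the Mme call ended in 7 of 20 fits in BALB/c and 4 of 8 in rat, that for Tpp2 in 7 of 8 and that for Arrb1 in 4 of 8. Without sham library 4 and SNT library 1, 4 of the 7 peptidases rose and 2 fell. In that fit 43.9% of all rat features passed, against 27.4% with every library. The median log2 fold change of each of these 3 lists was between -0.07 and 0.08 in the mouse strains.

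Markers of other cell types moved with injury in part. Of 7 macrophage markers, 3 rose in BALB/c and 0 of 7 in B10.D2 by edgeR, where 5 had an unadjusted p under 0.05 and 1 passed with DESeq2, with summed levels of 59.6 to 148.4 CPM in BALB/c sham, 109.6 to 168.8 in BALB/c SNI, 116.1 to 138.0 in B10.D2 sham and 122.9 to 194.6 in B10.D2 SNI. No marker of satellite glia (6), Schwann cells (6), mural cells (5) or T cells (4) passed in either strain by edgeR, although 2 satellite glia and 2 T cell markers in BALB/c and 2 satellite glia markers and 1 mural marker in B10.D2 had an unadjusted p under 0.05, and 2 satellite glia markers passed with DESeq2 in BALB/c. By edgeR 1 of 6 endothelial markers rose in BALB/c alone and 1 of 5 fibroblast markers rose in each strain, and of 4 tested central nervous system markers 1 fell in BALB/c and 1 rose in B10.D2. Without 1 library, the BALB/c calls for endothelial Cldn5 and central nervous system Aqp4 ended in 15 and 16 of the 20 fits. Those for macrophage Cd68 and Csf1r in BALB/c ended in 7 each, and that for fibroblast Lum in 2. The B10.D2 call for central nervous system Olig1 ended in 6. Of 8 sensory neuron markers, 1 fell in each strain, the neurofilament gene Nefh. In rat 3 of 4 sensory neuron markers fell, with sums of 5115 to 7625 CPM in sham and 3721 to 6584 in SNT. There 1 of 3 Schwann cell, 1 of 3 macrophage, 1 of 1 endothelial, 2 of 3 fibroblast and 2 of 3 T cell markers rose, the fibroblast sum from 2976 to 5330 CPM in sham to 6620 to 10780 in SNT. With sham library 4 and SNT library 1 left out, 3 of 3 macrophage and 2 of 3 Schwann cell markers rose, and 3 of 4 sensory neuron markers fell. In that fit 43.9% of all rat features passed, against 27.4% with every library. Without 1 library, the sensory neuron calls for Avil, Isl1 and Scn10a ended in 6, 5 and 5 of the 8 fits. The T cell call for Cd2 ended in 5, and the fibroblast calls for Lum and Col3a1 in 3 and 1. The part of these markers in the receptor results was not tested.

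The strain comparison asked how the receptors differ between B10.D2 and BALB/c ganglia after the same surgery. In sham ganglia, Galr2 and Ntsr2 were lower and Galr1 and Npy2r higher in B10.D2, so 4 of 10 receptors passed, where 21.6% of all features did, and 2 of 10 did not overlap (13.3% of all features). Galr2 differed most. It ranged from 0.941 to 1.34 CPM, or 38 to 45 counts, in BALB/c sham, and was at 0.146, 0.211, 0.109, 0.0798 and 0.145 CPM, or 3 to 7 counts, in B10.D2 sham. The groups were far apart, and the log2 fold change was -3.00 (SE 0.254; adjusted p = 9.65e-09), an 8.02-fold lower level in B10.D2. In SNI it was at 0.195, 0.128, 0.194, 0.0803 and 0.280 CPM in B10.D2, below the 0.843 to 1.25 of BALB/c (-2.545, SE 0.258; adjusted p = 1.97e-07). Leaving out any 1 library gave values between -3.18 and -2.85 in sham. Galr1 differed the other way, at 7.69 to 12.1 CPM in B10.D2 sham against 4.24 to 7.44 in BALB/c sham (0.66, SE 0.148; adjusted p = 0.00201), and in SNI by 0.75 (SE 0.166; adjusted p = 0.00221), with no overlap after either surgery.

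**Figure D5:**
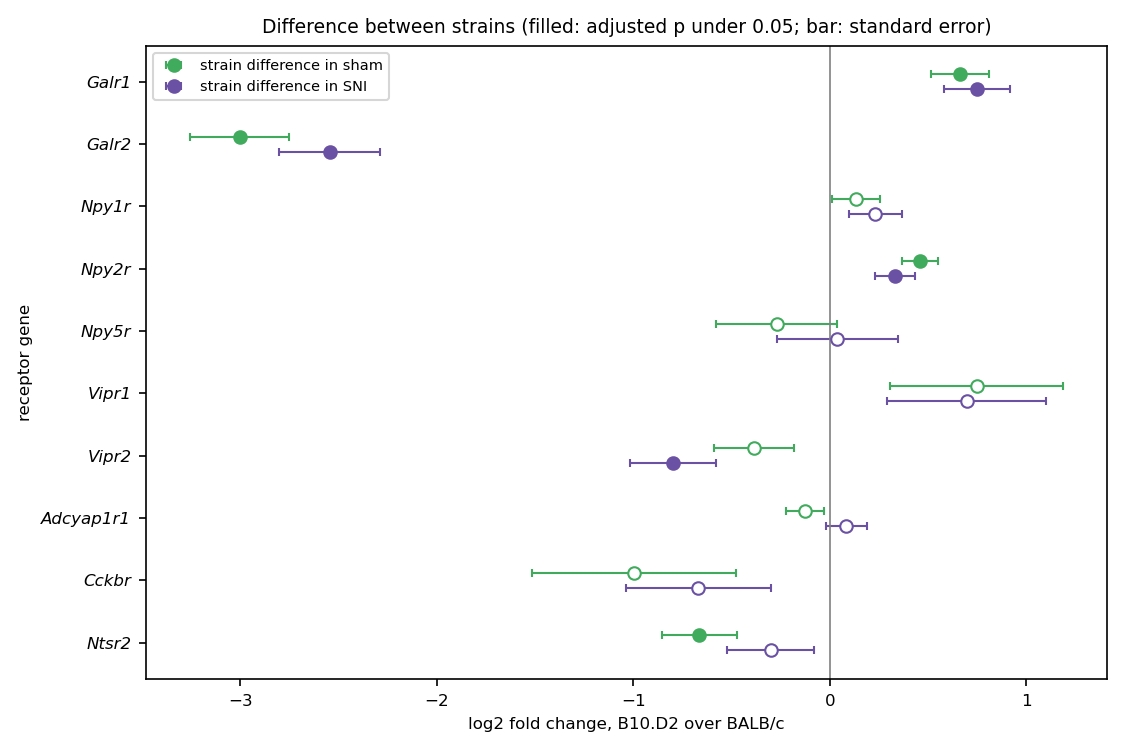
Log2 fold change of B10.D2 over BALB/c for each receptor in sham and in SNI ganglia, with bars for the standard error and filled points where the adjusted p was under 0.05. Galr2 lies at -3.00 and -2.545, apart from every other receptor, and Galr1 and Npy2r lie above 0 after both surgeries.

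Npy2r was higher in B10.D2 in sham (0.46, SE 0.0918; adjusted p = 0.000792) and in SNI (0.33, SE 0.101; adjusted p = 0.0221), where the call ended without BALB/c SNI library 49, 65 or 70 or B10.D2 SNI library 76 (adjusted p of 0.05425 to 0.0729). Ntsr2 was lower in B10.D2 sham (-0.66, SE 0.189; adjusted p = 0.0143) and did not pass in SNI (-0.30, SE 0.223; adjusted p = 0.390). Vipr2 was at 0.837, 0.970, 1.04, 0.401 and 1.01 CPM in B10.D2 SNI and at 1.27, 1.40, 2.07 and 1.11 CPM in BALB/c SNI, without overlap, and was lower in B10.D2 by a log2 fold change of -0.80 (SE 0.219; adjusted p = 0.0113), or -0.62 (adjusted p = 0.0748) without BALB/c SNI library 65. In SNI 4 of 10 receptors passed (20.9% of all features) and 4 of 10 did not overlap (18.3%). The strains also differed in markers: 4 of 5 mural cell markers were lower in B10.D2 sham, and 3 of 7 macrophage and 3 of 4 T cell markers were higher. The T cell markers were low, with sums of 0.401 to 1.09 CPM in BALB/c sham and 1.48 to 2.15 in B10.D2 sham. Of 8 sensory neuron markers 2 were higher and 1 lower, and of 5 fibroblast markers 2 were higher and 1 lower. Of 6 endothelial markers 2 were lower, and of 6 satellite glia markers 1. The part of these markers in the receptor differences was not tested. Of the ligands, Adcyap1 was higher (0.35, SE 0.108; adjusted p = 0.0243) and Cck lower (-0.92, SE 0.299; adjusted p = 0.0366) in B10.D2 sham, and Gal was lower in B10.D2 SNI (-2.59, SE 0.250; adjusted p = 9.02e-08). Cckbr did not pass between strains in sham (-0.996, SE 0.518; adjusted p = 0.197) or in SNI (-0.67, SE 0.369; adjusted p = 0.225).

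Whether injury changed a receptor by different amounts in the strains was tested with the interaction of strain and injury. By edgeR 0 of 10 receptors passed, 0 had an unadjusted p under 0.05 and 0 passed with DESeq2, where 0.0243% of all features passed by edgeR. For Cckbr the injury change in B10.D2 minus that in BALB/c was 0.33 (SE 0.635), for Npy2r -0.12 (SE 0.137), for Npy1r 0.10 (SE 0.182) and for Ntsr2 0.36 (SE 0.294), all as log2 differences with adjusted p = 1.0, so a receptor called in 1 strain and not in the other is not shown to differ between them. Of their ligands Gal did pass, with a difference of -2.37 (SE 0.358; adjusted p = 0.0140). Male and female mice were compared over both strains and surgeries. By edgeR 0 of 10 receptors passed (0.243% of all features) and by DESeq2 0, with 2 at an unadjusted p under 0.05: Adcyap1r1, lower in males by a log2 fold change of -0.22 (SE 0.0706; adjusted p = 0.202), and Ntsr2 (-0.31, SE 0.144; adjusted p = 0.402).

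The genes most like each receptor were found by Pearson's r of log2(CPM + 0.5) over the 20 mouse libraries, after the means of each sex, strain and surgery had been taken out, among 14413 genes of at least 1 CPM on average. The values therefore describe how libraries of the same group vary together. Cckbr was most like Ecel1, an endopeptidase gene of injured neurons (r = 0.957), and Nts (r = 0.941). Npy1r was most like Scel (0.889) and Gabrb1 (0.861), Npy2r like Nudt17 (0.836) and Stam (0.825), Galr1 like Ankib1 (0.833) and Atp8a1 (0.827), and Vipr2 like Chmp4c (0.805) and Ccdc3 (0.778). The closest genes to Adcyap1r1 were Igsf11 (0.749) and Gpatch2 (0.740), and to Ntsr2 Gpatch8 (0.753) and Cops7b (0.743). These are descriptions over 20 points, and the points share library depth and the makeup of the dissected tissue. Each r was picked as among the largest of 14413, so large values can arise between unrelated genes too. B10.D2 SNI library 76, low in Cckbr and in the injury genes, is among the points, and its part was not tested.

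The study assembled long noncoding RNAs (LncRNAs) from its mouse reads. Only the nearest pair on the chromosome of each receptor gene was looked at, and 5 of these LncRNAs lay within 100000 bases. Any further ones within that distance were not counted. LncRNA5338 (chromosome 7, 105484343 to 105510805, plus strand) starts 13445 bases from Cckbr on the same strand, at a mean of 2.93 CPM. While Cckbr rose, its log2 fold changes were -0.25 (SE 0.130; adjusted p = 0.261) in BALB/c and 0.04 (SE 0.125; adjusted p = 0.912) in B10.D2. LncRNA5339, 47045 bases away, also did not pass (adjusted p = 0.393 and 0.368). LncRNA6506 (chromosome 12, 116173894 to 116205019, minus strand), 27633 bases from Vipr2 on the opposite strand, was higher in B10.D2 sham (1.456, SE 0.279; adjusted p = 0.000493), where Vipr2 was at 0.879 ± 0.192 CPM (n = 5) against 1.18 ± 0.156 in BALB/c sham (n = 6; adjusted p = 0.207). The pair near Vipr1, LncRNA1858 and LncRNA5776, did not pass in any of these comparisons.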

How the data were processed

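Raw counts of read pairs per gene, as deposited, were analysed. According to the methods, the authors made strand-marked (dUTP) paired-end libraries, ribodepleted for mouse and polyadenylated for rat, aligned them with STAR to mm10 or rn6, and obtained counts with HTSeq (intersection-nonempty) over Ensembl genes and the LncRNAs they had assembled. Tool versions and HTSeq's strand setting are not given in the sources used here. The deposited fold changes and p-values of the authors' DESeq2 comparisons were not used, only the gene symbols beside them. Of 30 labelled libraries, 2 (1 B10.D2 sham and 1 BALB/c SNI) have no column in the count tables and were not analysed here.

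Counts were tested with edgeR 4.0.16 in R 4.3.3 (TMM factors of 0.974 to 1.03 in mouse and 0.931 to 1.04 in rat, filterByExpr, quasi-likelihood F test, Benjamini-Hochberg adjustment over all features tested). All 20 mouse libraries entered 1 model with terms for sex, strain, injury and the interaction of strain and injury, and the 8 rat libraries 1 model with injury. Standard errors were derived from each log2 fold change and its F value (log2 fold change over the root of F). Every adjusted p comes from these fits unless DESeq2 (1.42.0) is named. Exon lengths came from GENCODE M21 (mm10) and promoters from RefSeq GRCm38.p6, which listed 9 of the 10 genes. The fits were first tested on simulated data. Alternatives were other size factors, other filters on low counts, DESeq2, fits without sex or of each strain alone, a replicate block in rat and leaving out single libraries.

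The 10 receptors were named in every comparison, their 6 ligands in every injury comparison, and from the other lists at most the 2 largest rises and falls that passed. Receptors and lists were chosen with earlier results of these data known. Low levels rest on few counts, and the intervals given are standard errors between libraries. A number in the rat titles is shared by a sham and an SNT library, and the labels do not say what it stands for. Between libraries sharing a number, deviations from the group means correlated between -0.238 and 0.0529. These few values cannot decide whether the number marks a block.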

Additional observations from a re-analysis of the deposited data

Results flagged for a closer look

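A library was singled out where its distance from the nearest other library took up most of the range of its group by Dixon's criterion. Of 83 groups of 4 to 6 libraries examined over receptors and ligands, 8 held such a library, and chance gives about 1 in 20. Among receptors, Galr1 stood at 11.84 CPM in B10.D2 SNI library 76 (the other 4 libraries at 8.07 to 9.16) and at 6.595 CPM in BALB/c SNI library 64 (others 5.19 to 5.36). Npy5r stood at 1.098 CPM in B10.D2 SNI library 76 (others 0.616 to 0.754) and Vipr2 at 1.207 CPM in B10.D2 sham library 88 (others 0.702 to 0.844). The remaining 4 were ligands in rat sham library 4: Gal at 283.9 CPM (others 82.7 to 90.1), Adcyap1 at 268.3 (others 74.7 to 101.3), Vip at 41.43 (others 10.4 to 13.4) and Cck at 10.49 (others 1.28 to 2.07).

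The galanin gene Gal changed by different amounts in the strains. Its log2 fold change after SNI in B10.D2 minus that in BALB/c was -2.373 (SE 0.358; edgeR's quasi-likelihood test, adjusted p = 0.0140), and all B10.D2 SNI libraries were below all BALB/c SNI libraries.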

How the results depend on the processing

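Over all alternatives, 1491 log2 fold changes of single receptors kept their direction and side of the threshold, 21 lost the call, 13 gained one and 38 changed sign. With at least 10 counts in every library Cckbr was not tested in mouse. With this filter 2 receptors passed in BALB/c (11.7% of all features) and 1 in B10.D2 (5.29%). With DESeq2, 4 passed in BALB/c (11.3%) and 3 in rat (26.6%). With a replicate block by title number in rat, 1 receptor passed, Cckbr (17.4% of all features). Npy2r did not pass with this block (log2 fold change 0.78, adjusted p = 0.0584). What the title number stands for is not given in the labels. Leaving out 1 library at a time gave 2 to 4 receptors in BALB/c (6.56% to 10.7% of all features) and 1 to 3 in B10.D2 (2.64% to 4.84%). It gave 1 to 3 in rat (10.6% to 36.1%) and 2 to 5 between strains in SNI (16.8% to 21.3%). Receptors that changed sign when 1 library was left out had not passed in any of those fits: after injury, Galr1 (-0.0667 to 0.139 in B10.D2, -0.165 to 0.0291 in BALB/c) and Vipr2 in B10.D2 (-0.264 to 0.0676); between strains in SNI, Adcyap1r1 (-0.0217 to 0.157) and Npy5r (-0.12 to 0.34); in the interaction, Galr1 (-0.0233 to 0.206), Npy1r (-0.0148 to 0.207) and Vipr1 (-0.33 to 0.57); by sex, Galr2 (-0.0254 to 0.131) and Vipr1 (-0.15 to 0.22). In sham libraries alone, the sex difference was 0.0608 for Npy2r and 0.12 for Npy5r. Over all features, the interaction gave 6 calls, 10 with DESeq2 and 3 with at least 10 counts, and sex gave 60, 242 with DESeq2, 222 unfiltered for low counts and 19 in sham libraries alone. Leaving out 1 library at a time gave 1643 to 2648 calls over all features in BALB/c, 665 to 1214 in B10.D2, 1483 to 5041 in rat, 3 to 6 for the interaction and 35 to 159 for sex. The causes were not tested. Galr2 in B10.D2 (3 to 10 counts) and Vipr1 (2 to 20 counts) were limited by depth.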
